A study of Rattus norvegicus with 15 samples.

Results

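Rat miR-143 and miR-145 are cut from neighbouring hairpins of 1 transcript, and their mature products rno-miR-143-3p, rno-miR-145-5p and rno-miR-145-3p are described here across 3 diets. The members were taken by name, as 3 of the 600 mature miRNA names in the table of counts, and all 3 were among the 519 names with enough reads to be tested. The remaining arm, miR-143-5p, is not a member and is given beside them because it is cut from the same hairpin as miR-143-3p.

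The study asked how dietary salt affects the kidney of PCK rats, which model the recessive form of polycystic kidney disease. Small RNA of kidney cortex was sequenced in 15 libraries, 5 for each of 3 diets, which held 0.01%, 0.4% or 4% NaCl. Rats were bought at 4 weeks of age, were put on the diet at 6 weeks and stayed on it for 8 weeks. All 15 libraries came from the strain PCK/CrljCrlPkhd1pck/CRL, so every group carries the Pkhd1 mutation and no wild-type rats were analysed here. The kidney was flushed before the cortex was frozen, and no treatment other than the diet was given. The labels' protocol speaks of pooling 2 to 3 rats for a library and of 2 such pools in a condition, whereas 5 samples are listed for each diet. Which animals a library stands for is therefore not known, and p-values measure only how much these samples spread, which may be technical.

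miR-143 and miR-145 are made from 1 primary transcript that is best known from vascular and visceral smooth muscle. In mouse, serum response factor and its partner myocardin switch the transcript on, and the 2 miRNAs repress factors such as Klf4, Klf5 and Elk1 that hold smooth muscle in a proliferating state. Each hairpin yields a 5p and a 3p arm, 1 of which is usually loaded into Argonaute and kept while the other is degraded. In the kidney the cluster is known from arteries, arterioles and pericytes, but whole cortex was sequenced here, so a level is an average over all cells of the tissue and fewer cells of a type cannot be told apart from less RNA per cell.

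The mature sequences show why the members cannot stand in for each other, since each arm has a seed of its own. They are credited to RefSeq, build GRCr8, where all 4 arms were matched by name. Each is printed 5′ to 3′ with the seed, bases 2 to 8, in capitals.
miR-143-3p: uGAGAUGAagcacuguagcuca
miR-143-5p: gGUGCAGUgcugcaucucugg
miR-145-5p: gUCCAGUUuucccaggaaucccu
miR-145-3p: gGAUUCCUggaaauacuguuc
None of the other RefSeq mature rat names shares any of these 4 seeds, in a search of 693 names, so no seed mate had to be set beside the members.

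The hairpins lie head to tail on the minus strand of chromosome 18 in GRCr8. Mir143 is at chr18:57371349-57371453 and is 105 bases long, and Mir145 is at chr18:57369983-57370070 and is 88 bases long. They are printed 5′ to 3′ with both mature arms in capitals, to show where the arms lie. By the reads given below, and not by the sequence, the abundant arm is the 3p arm of the first hairpin and the 5p arm of the second.
Mir143: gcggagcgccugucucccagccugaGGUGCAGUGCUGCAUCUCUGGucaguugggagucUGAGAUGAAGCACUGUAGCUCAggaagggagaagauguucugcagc
Mir145: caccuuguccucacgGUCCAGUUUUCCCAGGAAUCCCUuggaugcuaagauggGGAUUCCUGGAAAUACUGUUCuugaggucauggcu
A gap of 1278 bases separates them, and no other RefSeq hairpin lies within 50 kb of them. Both fall inside Carmn, a long noncoding RNA of 20922 bases at chr18:57368191-57389112 on the same strand, and the table used does not say whether they are exonic or intronic. Carmn is the host transcript of the cluster and is also called Mir143hg.

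Since the members share this host, its promoter window is printed too. It runs from 250 bases before to 50 bases after the RefSeq start of Carmn, at chr18:57389063-57389362 on the minus strand of GRCr8. It was searched on both strands for the CArG box, the site that serum response factor binds, and the capitals mark the places that match the box in all but 1 of its outer C or G bases.
Carmn: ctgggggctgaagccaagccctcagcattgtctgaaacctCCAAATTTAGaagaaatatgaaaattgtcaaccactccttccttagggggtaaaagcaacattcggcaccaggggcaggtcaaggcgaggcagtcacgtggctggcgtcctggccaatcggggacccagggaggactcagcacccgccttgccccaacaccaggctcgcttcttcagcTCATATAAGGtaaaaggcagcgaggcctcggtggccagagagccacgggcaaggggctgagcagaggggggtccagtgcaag
The window held 2 such near matches, which end 200 and 22 bases before the start. It held 0 exact matches. The start lies 17659 bases before the Mir143 hairpin, and the bases between the window and the hairpin were not searched. Of 33469 rat promoter windows of 300 bases, 1.64% held an exact match and 14.7% a near match or an exact one. A match describes the letters only, and binding was not measured.

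Libraries held 5.77 to 7.83 M reads on 0.01% NaCl, 4.79 to 7.38 M on 0.4% and 4.17 to 5.42 M on 4%, where M stands for 1e6. Levels are given as scaled CPM, which are CPM relative to the library size after TMM scaling. The TMM factors were 0.781 to 1.01 on 0.01% NaCl, 0.9216 to 1.152 on 0.4% and 1.026 to 1.106 on 4%. Names of other species took 8.05% to 13.52% of reads on 0.01% NaCl, 11.14% to 15.79% on 0.4% and 14.0% to 14.3% on 4%. The most abundant name, miR-10a-5p, took 24.8% to 40.3%, 18.5% to 31.2% and 23.6% to 25.7% of reads on these diets. Library 5 of 0.01% NaCl stood apart, with the most reads, the lowest TMM factor and the lowest share of other-species names of all 15 libraries, so results that rest on it are also given without it. The numbers of libraries only name them and pair nothing across diets. Ligation and amplification favour some small RNAs over others, so a difference in level between 2 miRNAs is a difference in reads and not in molecules.

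miR-143-3p was the abundant product of the cluster, with 4.44 ± 0.756% of all reads on 0.01% NaCl (SD, n = 5), 2.83 ± 0.546% on 0.4% and 2.64 ± 0.201% on 4%. It ranked between 3rd and 6th of all names in libraries of the lowest-salt diet and between 6th and 10th in the others. On 0.01% NaCl its levels in libraries 1 to 5 were 50964, 39918, 41147, 44775 and 71195 scaled CPM. On 0.4% NaCl they were 33763.5, 30232, 35485, 21452 and 18690.2 scaled CPM. On 4% NaCl they were 23399.5, 25057, 28295, 22873 and 23682 scaled CPM. All 5 libraries of the 0.01% diet lay above all 10 others, and the other diets overlapped, with the 0.4% libraries spread around the narrow 4% group.

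miR-143-3p rose on the lowest-salt diet against both others. The mean was 49599.8 ± 12813 scaled CPM on 0.01% NaCl against 27925 ± 7479 on 0.4%, a log2 fold change of 0.83 ± 0.18 (SE; 95% interval 0.44 to 1.22; edgeR quasi-likelihood test, adjusted p = 0.00513), or 1.78-fold. Against the 24661 ± 2186 of the 4% diet the log2 fold change was 1.01 ± 0.18 (0.62 to 1.40; edgeR adjusted p = 0.00281), or 2.01-fold. Adjusted p-values are Benjamini-Hochberg values over all 519 names, and a name under 0.05 is said to be called. Both comparisons share the 0.01% libraries, so they are not independent of each other. Ordered by log2 fold change among the 519 names, miR-143-3p came 32nd in the first comparison and 13th in the second. It was called in all 15 refits that each left out 1 library, in both comparisons. Without library 5 of the 0.01% diet, the log2 fold change was 0.65 against 0.4% NaCl and 0.82 against 4% NaCl.

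miR-145-3p, the scarcer arm of miR-145, was read 299 to 939 times in a library. On 0.01% NaCl its levels in libraries 1 to 5 were 137, 96.5, 91.5, 99.6 and 154 scaled CPM. On 0.4% NaCl they were 83.8, 76.9, 90.3, 72.1 and 62.4 scaled CPM. On 4% NaCl they were 67.5, 82.5, 102, 65.0 and 65.6 scaled CPM. All 5 libraries of the 0.01% diet lay above all 5 of the 0.4% diet, although the margin between the nearest libraries was small, and library 3 of the 4% diet lay above 3 of the 0.01% libraries.

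miR-145-3p also rose on the lowest-salt diet, with calls that the absence of a single library could end. The mean was 116 ± 27.9 scaled CPM on 0.01% NaCl (SD, n = 5) against 77.1 ± 10.7 on 0.4%, a log2 fold change of 0.58 ± 0.18 (0.20 to 0.97; edgeR adjusted p = 0.0345). Against the 76.5 ± 15.8 of the 4% diet it was 0.60 ± 0.18 (0.22 to 0.98; edgeR adjusted p = 0.0272). Of the refits that left out 1 library, 8 of 15 kept the call against 0.4% NaCl and 10 of 15 kept the call against 4% NaCl. Leaving out library 1 or library 5 of the 0.01% diet, or library 1 of the 4% diet, ended both. The call against 0.4% NaCl was also lost without library 1, 2, 4 or 5 of that diet, and the call against 4% NaCl without library 4 or 5 of that diet. The log2 fold change in these refits was 0.45 to 0.65 against 0.4% NaCl and 0.45 to 0.69 against 4% NaCl. With library totals in place of TMM factors both calls were lost, at log2 fold changes of 0.40 (edgeR adjusted p = 0.0801) and 0.34 (edgeR adjusted p = 0.119).

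miR-145-5p is the main arm of miR-145 in these libraries and the arm with the described smooth muscle targets. It was read 1886 to 6116 times in a library. On 0.01% NaCl its levels in libraries 1 to 5 were 609, 349.7, 405, 359 and 1000.7 scaled CPM. On 0.4% NaCl they were 341, 314, 453, 375 and 437 scaled CPM. On 4% NaCl they were 498, 345, 536, 427 and 438 scaled CPM. Libraries 1 and 5 of the 0.01% diet were the highest of all 15, and the other 3 libraries of that diet lay within the range of the other diets.

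miR-145-5p was called in no comparison. Its mean was 545 ± 276 scaled CPM on 0.01% NaCl, 384 ± 59.8 on 0.4% and 449 ± 73.4 on 4% (SD, n = 5). The log2 fold change of 0.01% against 0.4% NaCl was 0.50 ± 0.25, with a 95% interval from -0.026 to 1.03 (edgeR adjusted p = 0.183). Against 4% NaCl it was 0.28 ± 0.25, from -0.25 to 0.81 (edgeR adjusted p = 0.455). Library 5 carried most of both values, since without it they were 0.15 and -0.079. The intervals hold values as large as the change of miR-145-3p, so a change of that size was not detectable at this spread.

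miR-143-5p, the arm of miR-143 that is mostly degraded, was read 25 to 96 times in a library. Its levels were 14.1 to 15.4 scaled CPM on 0.01% NaCl, 4.06 to 14.1 on 0.4% and 6.31 to 12.7 on 4%. The 5 libraries of the 0.01% diet were close together and all lay above the 4% libraries, while library 4 of the 0.4% diet lay just inside their range. No comparison was called, at a log2 fold change of 0.47 ± 0.27 for 0.01% against 0.4% NaCl (edgeR adjusted p = 0.235) and of 0.62 ± 0.27 for 0.01% against 4% NaCl (edgeR adjusted p = 0.111). The second was called without library 5 of the 0.4% diet, in 1 of the 15 refits.

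**Figure D1:**
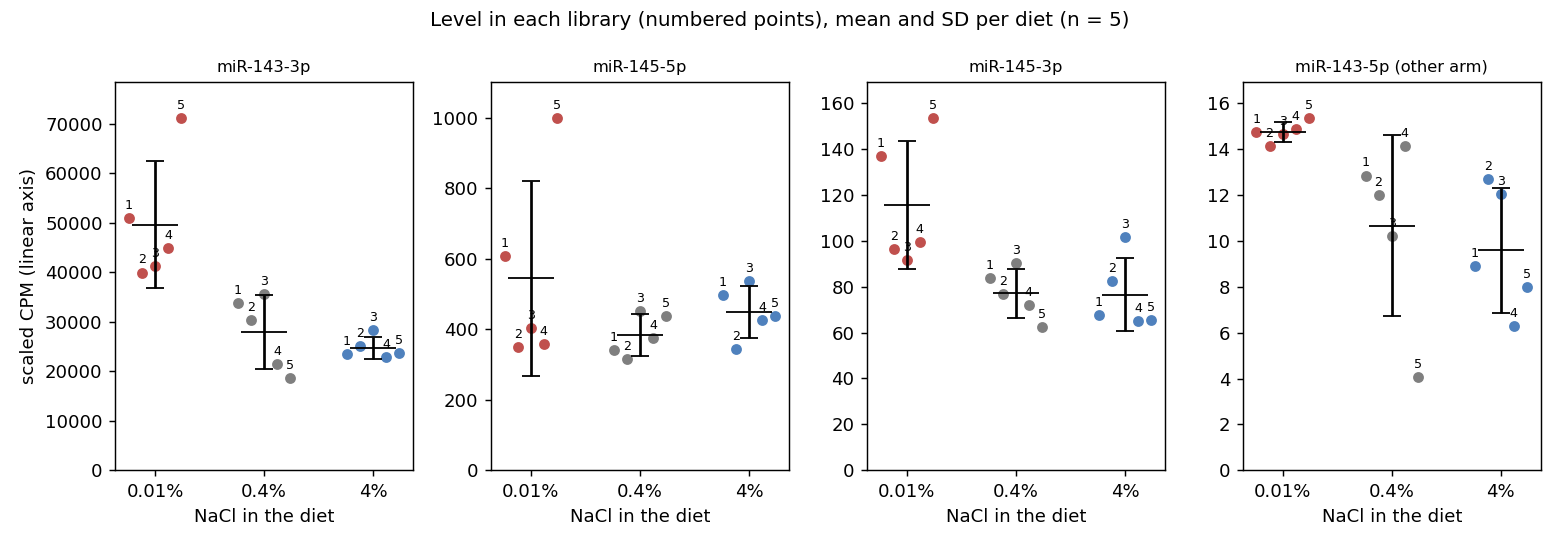
Scaled CPM of miR-143-3p, miR-145-5p, miR-145-3p and miR-143-5p (linear vertical axes, each with its own range from 0) by NaCl content of the diet. Points are libraries with their numbers, and the cross lines and bars are the mean and SD of 5 libraries. The 0.01% libraries of miR-143-3p, at 39918 scaled CPM or more, all sit above the others, whereas those of miR-145-5p sit apart only in libraries 1 and 5.

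Read against all names, 2 of the 3 members were called higher on 0.01% than on 0.4% NaCl, where 7.71% of the 519 names were called higher, 9.06% lower and 16.8% in either direction. The same 2 members were called higher on 0.01% than on 4% NaCl, where the shares were 7.32% higher, 13.1% lower and 20.4% in all. Groups that did not overlap were found for miR-143-3p and miR-145-3p in the first of these comparisons, where 6.94% of names had every 0.01% library above every 0.4% library. In the second comparison 1 of the 3 members, miR-143-3p, had every 0.01% library above every 4% library, as had 5.01% of names. A joint test of any difference between the diets called miR-143-3p (edgeR adjusted p = 0.00369) and miR-145-3p (edgeR adjusted p = 0.0322) but not miR-145-5p (edgeR adjusted p = 0.31), and it called 16.4% of names. The joint call of miR-145-3p held in 7 of the 15 refits that left out 1 library.

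No member was called between the diets with 4% and 0.4% NaCl. The log2 fold change of 4% against 0.4% NaCl was -0.18 ± 0.18 for miR-143-3p, with a 95% interval from -0.56 to 0.21. It was 0.22 ± 0.25 for miR-145-5p, from -0.30 to 0.75. It was -0.01 ± 0.18 for miR-145-3p, from -0.39 to 0.37. The edgeR adjusted p was at least 0.981 for each of the 3. None of the 519 names was called in this comparison by edgeR (0% of names), and 0 by DESeq2 or by limma-voom, while 5.2% had an unadjusted p under 0.05. The levels of miR-143-3p and miR-145-3p thus ran in the order 0.01%, 0.4%, 4% NaCl, of which the last pair did not differ beyond the spread, and the order for miR-145-5p was 0.01%, 4%, 0.4% NaCl with no neighbours that differed beyond it.

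**Figure D2:**
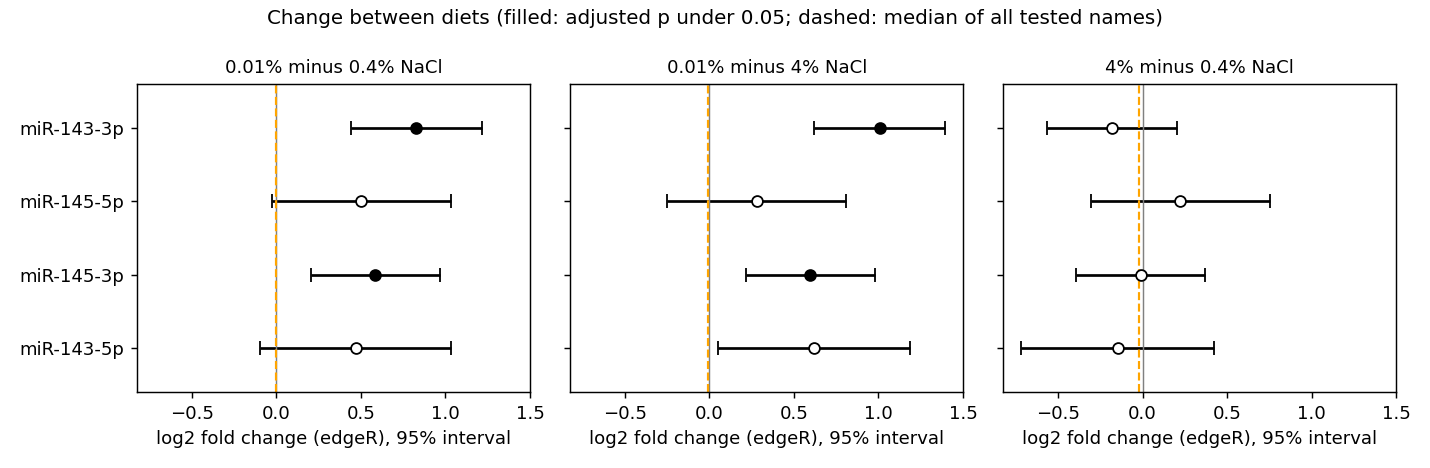
Log2 fold change with its 95% interval (edgeR) for the 4 arms of the cluster, in the 3 comparisons between diets named over the panels. Filled points have an adjusted p under 0.05, and the dashed line is the median of all 519 names. miR-143-3p and miR-145-3p are filled in both comparisons with the 0.01% diet, and no arm is filled for 4% against 0.4% NaCl.

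The authors' own comparisons by edgeR and DESeq2 gave the same directions. Calls differed between these tools for miR-145-3p and for miR-143-5p, both on 0.01% minus 4% NaCl. In the authors' deposited table from edgeR, the log2 difference of miR-143-3p was 0.86 for 0.01% minus 0.4% NaCl, with an adjusted p of 0.0148, and 1.01 for 0.01% minus 4% NaCl, with an adjusted p of 0.00243. In the authors' deposited table from DESeq2, they were 0.73 with an adjusted p of 0.00526 and 0.96 with an adjusted p of 5.73e-08. For miR-145-3p the authors' deposited table from edgeR gave 0.61 with an adjusted p of 0.0308 and, against 4% NaCl, 0.59 with an adjusted p of 0.0605, whereas the authors' deposited table from DESeq2 gave 0.56 with an adjusted p of 0.013 for the latter. For miR-143-5p on 0.01% minus 4% NaCl, the authors' deposited table from DESeq2 gave 0.57 with an adjusted p of 0.0174, and the authors' deposited table from edgeR gave 0.61 with an adjusted p of 0.0531. miR-145-5p passed no threshold of 0.05 in either of the authors' deposited tables. The signs are turned here to the order named, since the authors' deposited table divides the second set by the first.

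The arms differed widely in reads within a library. On 0.01%, 0.4% and 4% NaCl there were 99.1 ± 21.8, 74.7 ± 24.4 and 56.0 ± 9.74 reads of miR-143-3p for each read of miR-145-5p (mean ± SD of the ratio, n = 5). There were 4.52 ± 1.19, 5.08 ± 1.2 and 6.01 ± 1.27 reads of miR-145-5p for each read of miR-145-3p. There were 430 ± 37.1, 357 ± 53.8 and 328 ± 35.5 reads of miR-143-3p for each read of miR-145-3p. Arms of 1 hairpin start from 1 molecule each, so the ratio of the miR-145 arms describes what is kept, ligated and read, and not what is transcribed. The ratios of miR-143-3p to the arms of miR-145 compare different hairpins, and what sets them was not tested. A ratio within a library does not depend on how the library is scaled.

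Whether miR-143-3p changed more than the arms of miR-145 was tested on the log2 ratio within each library, with an exact two-sided permutation test over all assignments of 10 libraries to 2 groups of 5 and with adjustment over 9 tests. The log2 ratio of miR-143-3p to miR-145-3p in libraries 1 to 5 was 8.54, 8.69, 8.81, 8.81 and 8.86 on 0.01% NaCl and 8.44, 8.25, 8.12, 8.46 and 8.50 on 4% NaCl. The groups did not overlap, and the difference of 0.39 ± 0.092 (SE) gave an exact permutation p of 0.00794, the smallest this design allows, and an adjusted p of 0.0714. The ratio of miR-143-3p to miR-145-5p was 6.39, 6.83, 6.67, 6.96 and 6.15 on 0.01% NaCl and 5.56, 6.18, 5.72, 5.74 and 5.76 on 4% NaCl. Library 5 of the lower-salt diet overlapped the other group, and the difference was 0.81 ± 0.18, with an exact permutation p of 0.0159 and an adjusted p of 0.0714. Neither passed 0.05 after adjustment. A single ratio at the smallest possible p cannot pass 0.05 when 9 tests are adjusted, so no conclusion is drawn from this. Without library 5 of the 0.01% diet both had an adjusted exact permutation p of 0.0357, at differences of 0.36 and 0.92. The other 7 tests, all 3 of the ratio of the miR-145 arms among them, had adjusted exact permutation p-values of at least 0.167.

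**Figure D3:**
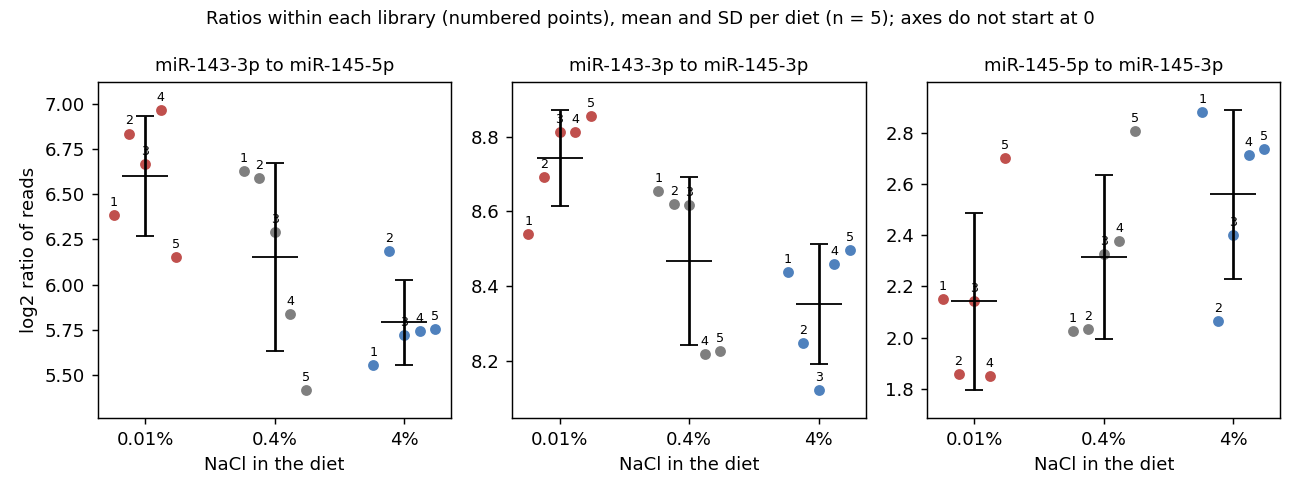
Log2 ratio of reads of miR-143-3p to miR-145-5p, of miR-143-3p to miR-145-3p and of miR-145-5p to miR-145-3p within each library, by NaCl content of the diet. Points are libraries with their numbers, lines and bars are the mean and SD of 5 libraries, and the vertical axes do not start at 0. For miR-143-3p to miR-145-3p all 0.01% libraries, at 8.54 or more, lie above the 4% libraries.

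Over the 15 libraries, the level of miR-143-3p ran alongside that of the scarce arm of miR-145. Pearson's r of log2 CPM was 0.92 (Spearman's rho 0.89) between miR-143-3p and miR-145-3p, and 0.83 between their deviations from the diet means. It was 0.50 (rho 0.15) between miR-143-3p and miR-145-5p, and 0.61 (rho 0.28) between the arms of miR-145. Leaving out the 2 libraries whose level on the first of each pair lay farthest from the median gave 0.84 for the first pair, -0.34 for the second and -0.14 for the third. The positive correlations of the levels of miR-145-5p with the other arms thus rest on libraries 1 and 5 of the 0.01% diet. Between deviations from the diet means, r was 0.50 (rho 0.46) for miR-143-3p and miR-145-5p, and 0.45 without 2 libraries. For the arms of miR-145 it was 0.61 (rho 0.58), and 0.39 without 2 libraries. Here the 2 libraries were those whose deviation for the first of the pair lay farthest from the median. They were picked anew and need not be libraries 1 and 5 of the 0.01% diet. These correlations are descriptions over 15 libraries that share diets, depth and scaling, and they carry no test.

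**Figure D4:**
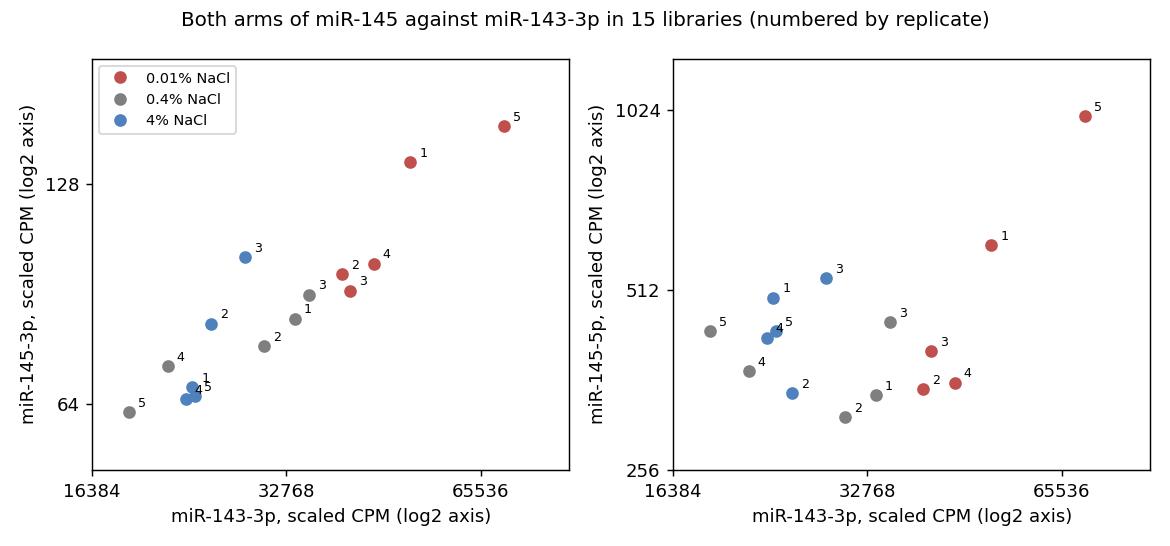
Scaled CPM of miR-145-3p (left) and miR-145-5p (right) against miR-143-3p in 15 libraries, on log2 axes. Points are libraries with their numbers, coloured by NaCl content of the diet. miR-145-3p runs along with miR-143-3p (r = 0.92), and miR-145-5p is high in libraries 1 and 5 of the 0.01% diet but follows no line in the others.

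Which other names had the most similar pattern was described among 169 names with a mean of at least 100 CPM. For miR-143-3p these were miR-181c-5p (Pearson's r 0.92), a row of insect miR-10-3p names headed dme-miR-10-3p (0.91), the epithelial miR-141-3p (0.91), miR-10a-5p (0.91) and miR-191a-5p (0.89). For miR-145-3p they were miR-141-3p (0.91), miR-181c-5p (0.91), miR-27a-3p (0.88), the epithelial miR-200c-3p (0.86) and miR-9a-5p (0.85). For miR-145-5p they were miR-23a-3p (0.91), miR-664-3p (0.80), miR-195-5p (0.80), miR-29b-3p (0.80) and miR-3587 (0.79). The 5 names of miR-143-3p and those of miR-145-3p have miR-181c-5p and miR-141-3p in common, and neither has a name in common with miR-145-5p. With deviations from the diet means in place of levels, 2 of the 5 names of miR-143-3p, 3 of those of miR-145-3p and 5 of those of miR-145-5p were again among the top 5, and with Spearman's rho 4, 4 and 3 were. The libraries share depth, scaling and diet, so likeness here says nothing of shared cells. Names that count the same reads would keep a steady ratio over the libraries. The steadiest partner had an SD of the log2 ratio of 0.234 for miR-143-3p (miR-10a-5p), 0.186 for miR-145-5p (let-7i-3p) and 0.162 for miR-145-3p (miR-181c-5p).

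Other miRNAs known from smooth muscle, pericytes and fibroblasts were read from a list that has 7 names in the table, the 4 arms of the cluster among them. Of the 7, 4 were called higher and 0 lower on 0.01% than on 0.4% NaCl, with a median log2 fold change of 0.64 against -0.0027 for all 519 names, and 2 were called higher on 0.01% than on 4% NaCl, with a median of 0.41 against -0.0099. The members miR-143-3p and miR-145-3p are 2 of the 4 and both of the 2. Over all names, 7.71% were called higher and 9.06% lower in the first comparison, and 7.32% higher in the second. The 3 names outside the cluster come from the miR-199a and miR-214 genes, which are known from mesenchymal cells and fibroblasts. miR-199a-3p rose from 1928 ± 262 scaled CPM on 0.4% NaCl to 2998 ± 164 on 0.01% (log2 fold change 0.64 ± 0.18, edgeR adjusted p = 0.0187). Its value as a separate miRNA is uncertain, since the log2 ratio to a row named both bta-miR-3604 and ipu-miR-199b had an SD of 0.0297 over the libraries. miR-199a-5p rose from 439.8 ± 100 to 718 ± 153 scaled CPM (0.71 ± 0.23, edgeR adjusted p = 0.0405). miR-214-3p was 104 ± 19.5 and 161 ± 49.9 scaled CPM and was not called (0.64 ± 0.26, edgeR adjusted p = 0.103). Against 4% NaCl none of the 3 was called, at log2 fold changes of 0.35, 0.41 and 0.33.

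Summed over those 3 names, the level was 3661 to 4063 scaled CPM on 0.01% NaCl, 1844 to 2747 on 0.4% and 1589 to 4026 on 4%. Library 3 of the 4% diet lay within the range of the 0.01% diet, and the other 4 libraries of the 4% diet lay below it. The call of miR-199a-3p held in 13 of 15 refits without 1 library and was lost without library 3 of the 0.01% diet or library 5 of the 0.4% diet. The call of miR-199a-5p held in 6 of 15. With library totals in place of TMM factors, 1 of the 7 names of the list was called against 0.4% NaCl, miR-143-3p. The same was so without the library of each diet that held most other-species names, so both miR-199a calls were lost there too. The number called against 0.4% NaCl was between 1 and 5 when 1 library was left out.

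Names described in the change of vascular smooth muscle between its contractile and proliferating states were read from a list with 19 tested names. On 0.01% against 0.4% NaCl, 2 were called higher and 1 lower, with a median log2 fold change of 0.23. That share is near the 16.8% of all names called in this comparison, and nothing particular to the list is read from it. miR-21-5p, induced in injured vessels and kidneys, rose from 25809 ± 6029 to 45996 ± 9737 scaled CPM (0.83, edgeR adjusted p = 0.0362), a call held in 8 of 15 refits without 1 library. miR-31a-5p rose from 47.4 ± 10.1 to 98.6 ± 22.0 scaled CPM (1.06, edgeR adjusted p = 0.00435), and miR-29c-3p, of a family that represses collagens, fell from 656 ± 147 to 445 ± 23.8 (-0.56, edgeR adjusted p = 0.00972). Both calls held in all 15 refits. On 0.01% against 4% NaCl, 4 were called higher and 2 lower, with a median of 0.14, where 20.4% of all names were called. The 4 were miR-21-5p (0.98), miR-21-3p (1.15), miR-25-3p (0.37) and miR-31a-5p (0.75), and the 2 were miR-26a-5p (-0.30) and miR-29c-3p (-0.57). The calls of miR-25-3p, miR-26a-5p and miR-31a-5p against 4% NaCl held in 11, 12 and 13 of the 15 refits. With library totals the calls of miR-21-5p in both comparisons and those of miR-25-3p and miR-31a-5p against 4% NaCl were lost. The call of miR-25-3p was also lost with upper-quartile factors, and that of miR-26a-5p with DESeq2, with DESeq2 size factors and with only the 2 diets in the fit. Without the library of each diet that held most other-species names, miR-26a-5p lost its call against 4% NaCl and miR-21-5p its call against 0.4% NaCl. The remaining names, miR-221-3p, miR-22-3p and miR-133a-3p among them, were called in no comparison.

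Markers of other cells in the cortex were read from further lists. Over all 519 names, 16.8% were called on 0.01% against 0.4% NaCl and 20.4% on 0.01% against 4% NaCl. With so few names in a list, the number called cannot be set apart from these shares, and nothing about these cells is read from it. The 2 names of endothelium, miR-126a-3p and miR-126a-5p, were called in no comparison, and their sum was 10039 to 12622 scaled CPM on 0.01% NaCl, 9743 to 12981 on 0.4% and 9554 to 11769 on 4%. Of 7 names of leukocytes, 0 were called on 0.01% against 0.4% NaCl, with a median log2 fold change of 0.36 against -0.0027 for all names. Against 4% NaCl 1 was called lower, miR-150-5p of lymphocytes (-1.11, edgeR adjusted p = 0.0247), while the median of the list was 0.086. That call was lost without library 1 or 5 of the 0.01% diet or library 3 of the 4% diet. The sum of the 7 names was 3881 to 5012 scaled CPM on 0.01% NaCl, 3006 to 4596 on 0.4% and 2506 to 6029 on 4%. Of 3 tested names of red blood cells 0 were called. The most abundant, the miR-486-5p row and miR-451-5p, stood at 543 ± 84.4 and 18.8 ± 8.67 scaled CPM on 0.01% NaCl, at 554 ± 182 and 19.4 ± 18.9 on 0.4% and at 356 ± 81.5 and 10.2 ± 2.90 on 4%. Of 3 tested names of striated muscle, miR-499-5p was called lower on 0.01% than on 4% NaCl (-0.73, edgeR adjusted p = 0.0302), held in 11 of 15 refits, and their summed level with the untested miR-1-3p left out was 103 to 144, 138 to 192 and 122 to 245 scaled CPM. No list had a name at 0 in all libraries of a diet. The part of these cells in the changes of the cluster was not tested.

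Names of the kidney tubule, by far the largest part of the cortex, were read from a list of 13 tested names, most of which were not called. All 13 tested names of the list were read in every diet, the sum being 360179 to 659670 scaled CPM on 0.01% NaCl, 273966 to 467926 on 0.4% and 322088 to 394586 on 4%. Most of this sum was miR-10a-5p alone, with means of 354508, 243454 and 232795 scaled CPM on these diets. The sum therefore mainly follows that 1 name and is not read as a level of the tubule. On 0.01% against 0.4% NaCl, 2 were called higher and 1 lower, with a median of 0.088, beside 16.8% of all names called. miR-141-3p (1.04, edgeR adjusted p = 0.00279) and miR-200c-3p (1.17, edgeR adjusted p = 0.00303), products of 1 epithelial cluster, rose, and miR-194-5p, enriched in proximal tubule, fell (-0.60, edgeR adjusted p = 0.00653). On 0.01% against 4% NaCl, 4 were called higher and 1 lower, with a median of 0.11, beside 20.4% of all names called. The same 3 names were called, miR-141-3p at 0.85, miR-200c-3p at 1.06 and miR-194-5p at -0.50, with miR-10a-5p at 0.61 and miR-30a-5p at 0.37, whose calls held in 5 and 6 of 15 refits. The part of tubule RNA, depth and the share of miR-10a-5p in the changes of miR-143-3p and miR-145-3p was not tested. On 4% against 0.4% NaCl no name of any list was called by edgeR.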

How the data were processed

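Mature miRNAs were counted in 15 libraries of rat kidney cortex, and the authors deposited raw read counts for 600 mature names (445 of rat, 155 of other species). Reads were handled with cutadapt and Bowtie, and DESeq was used, per the submitters' processing notes. Per the labels' protocols, a TruSeq small RNA kit was used. Neither a genome build nor a miRNA database is named in these sources, nor how reads that match more than 1 name were counted. The authors' deposited comparisons give log2 fold changes and p-values, per the file headers. Those tables repeat counts per sample in 90 columns, which were left aside. The deposited comparisons from DESeq were also left aside, because a header among them names other libraries than its values fit.

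Groups follow the diet in the labels. Counts were fitted with edgeR 4.0.16 in R 4.3.3, after filterByExpr, which kept 519 names and dropped 81. The fit used TMM factors and robust dispersions, and 1 quasi-likelihood model held 3 diet means with 12 residual degrees of freedom. P-values were adjusted over all names. DESeq2 1.42.0 and limma-voom (limma 3.58.1) were alternatives, beside other scalings and filters and each library left out in turn. Correlations used log2 CPM with a prior count of 2. The code was tested on simulated data. Sequences were copied from RefSeq.

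Names in the text are the members, the other arm of miR-143, list names called in a pairwise comparison or else the 2 most abundant of a list, the 5 names most like each member and the most abundant name. miR-214-3p, miR-221-3p, miR-22-3p, miR-133a-3p and miR-1-3p were added after their values were seen. The members and lists were chosen with earlier results of these data known, so their counts are not independent support.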

Additional observations from a re-analysis of the deposited data

How the results depend on the processing

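miR-143-3p was called on 0.01% against both other diets under all 11 alternatives, at log2 fold changes of 0.65 to 0.87 against 0.4% NaCl and 0.75 to 1.06 against 4% NaCl. With library totals only, which moved the median of all names by -0.19 (0.01% minus 0.4% NaCl) and -0.24 (0.01% minus 4% NaCl), the log2 fold change of miR-145-5p for 0.01% minus 4% NaCl turned to -0.0038 and that of miR-145-3p for 4% minus 0.4% NaCl to 0.055. With the same totals miR-145-3p had 0.40 (0.01% minus 0.4% NaCl) and 0.34 (0.01% minus 4% NaCl) and a joint adjusted p of 0.114 by edgeR, all past no threshold. Relative to the median of all names its changes were 0.59 in both comparisons. With the library richest in other-species names left out of each diet, an alternative chosen after seeing the data, miR-145-3p had 0.55 (0.01% minus 0.4% NaCl, edgeR adjusted p = 0.105) and a joint adjusted p of 0.0691. The cause was not tested.

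A filter at a mean of 10 CPM tested 339 names and called 55 (32 higher, 23 lower) on 0.01% against 0.4% NaCl, in place of 87 of 519, and DESeq2 called 132 names in the joint test in place of 85. Library totals moved the split of calls to 25 higher and 79 lower on 0.01% against 0.4% NaCl, and to 14 and 117 against 4% NaCl. miR-143-5p was called for 0.01% minus 4% NaCl with only those 2 diets in the fit (edgeR adjusted p = 0.0483) and without the libraries richest in other-species names (0.0261).

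With each library left out in turn, the log2 fold changes for 0.01% minus 0.4% NaCl, 0.01% minus 4% NaCl and 4% minus 0.4% NaCl were 0.45 to 0.65, 0.45 to 0.69 and -0.12 to 0.050 for miR-145-3p, with a joint adjusted p of 0.0168 to 0.133 by edgeR. That of miR-145-5p for 0.01% minus 4% NaCl was -0.079 to 0.39. For 0.01% minus 4% NaCl, the difference in the log2 ratio of miR-143-3p to miR-145-5p was 0.72 to 0.92, and that to miR-145-3p was 0.33 to 0.44. The names called were 69 to 107 for 0.01% against 0.4% NaCl, 74 to 123 for 0.01% against 4% NaCl, 0 for 4% against 0.4% NaCl and 71 to 102 in the joint test.

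No paired analysis was possible because the labels give no replicate numbers that tie libraries of different diets. Depth limits miR-143-5p most, at 25 reads in its lowest library.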
